A study of Mus musculus with 2 samples.

Results

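The matrix metalloproteinases (MMPs), the ADAMTS proteases and their ADAMTS-like relatives, the tissue inhibitors of metalloproteinases (TIMPs) and the lysyl oxidases were compared between the livers of 2 groups of mice. Members were taken by gene symbol from the protein-coding genes of the deposited table, which gave 55 of 22026 protein-coding genes and of 35275 genes in all. They comprised 22 MMPs, 4 TIMPs, 19 ADAMTS proteases, 5 ADAMTS-like proteins and 5 lysyl oxidases. Both groups were male FVB mice of 12 months that were heterozygous for Alb-Cre, for the Rosa rtTA allele and for the S1a transgene, in which the rat PEPCK promoter drives a truncated, always active human SREBP1a. The S1a/ETP mice carried 1 copy of TRE-ETP in addition, so that doxycycline turned on endotrophin (a fragment released from the alpha 3 chain of collagen VI) in hepatocytes, the cells in which Alb-Cre acts, and the S1a/Ctrl mice lacked it. Every mouse ate chow with doxycycline at 200 mg/kg for 10 months, the controls included. Each group was sequenced as 1 library of RNA combined from 3 mice, so a pool does not show how many mice share a level, no spread between mice can be estimated and no p-value was computed.

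The values are FPKM, in which the fragments of a gene are scaled to its length and to sequencing depth. All of them came out as whole reads within 0.01 reads, with 19245078 reads in the S1a/Ctrl library and 14538808 in that of S1a/ETP. Ratios are S1a/ETP over S1a/Ctrl on the scale of log2(FPKM + 0.1), each followed in square brackets by its 95% exact binomial (Clopper-Pearson) interval, which covers the counting of reads only. "Rose" and "fell" below mean that this interval lay above or below 0 between the 2 pools. Both libraries were rich in hepatocyte RNA, with *Alb* (albumin) at 31534 and 31035 FPKM. Of 5 hepatocyte markers, however, 4 fell and 1 rose, with a median log2 ratio of −0.38, a lowest ratio of −1.08 and a sum of 49778 FPKM in S1a/Ctrl against 44442 in S1a/ETP. *Alb*, which fell (−0.02), and *Apob*, which rose (0.04), differed by less than the 0.07 that rescaling to TPM added to log2 ratios. The pools also differed in markers of other cells. Of 9 markers of skeletal muscle 8 passed the level used below and all 8 were 2-fold lower, from a sum of 99.1 FPKM in S1a/Ctrl to one of 0.525 in S1a/ETP. Most of the 8 were under 0.1 FPKM in S1a/ETP and passed that level only through S1a/Ctrl, which fixed their direction. Markers of neutrophils summed to 6.18 FPKM against 370.2.

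Matrix turnover in the liver is set by proteases that cut collagens, elastin and proteoglycans, by inhibitors that block them, and by oxidases that cross-link the fibers and make them harder to cut. MMPs are made as inactive zymogens and are blocked by the TIMPs. ADAMTS proteases cut proteoglycans, procollagens and von Willebrand factor, the ADAMTS-like proteins lack the protease domain, and lysyl oxidases oxidize lysines of collagen and elastin so that the chains join. In liver fibrosis these genes are known chiefly from stellate cells, macrophages and neutrophils.

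Of the 55 genes, 35 had a mean of at least 0.1 FPKM over the 2 pools, and the other 20 were below it. Among the 35, 5 were at least 2-fold higher in S1a/ETP, namely *Mmp8*, *Mmp9*, *Timp1*, *Timp4* and *Loxl4*, and 1, *Mmp13*, was at least 2-fold lower. Past the same level, 4.58% of 13750 protein-coding genes were 2-fold higher and 3.41% were 2-fold lower, and of all 16042 genes 6.42% and 6.25%. The share depends on the level, since genes averaging 0.1 to 1 FPKM passed 2-fold in 12.8% of cases upward and 10.5% downward, and those above 1 FPKM in 1.88% and 1.1%. Of the 20 members in the lower band, 4 were 2-fold higher and 1 was 2-fold lower, and of the 15 in the upper band only *Timp1* passed, upward. *Mmp8*, *Mmp9*, *Timp4* and *Loxl4* were under 0.1 FPKM in S1a/Ctrl and passed the level only through S1a/ETP, and *Mmp13* passed only through S1a/Ctrl, so these 5 had to differ. With a pseudocount of 1 FPKM, 0 members passed 2-fold in either direction. Of the 29 members above 0.1 FPKM in both pools, *Timp1* alone was 2-fold higher and none was 2-fold lower. Over the 12996 protein-coding genes with that property the shares were 2.96% and 1.72%.

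The counting interval lay above 0 for 8 of the 35 members and below 0 for 4, and it held 0 for 23. Over protein-coding genes these shares were 25% above and 18.4% below, over all genes 22.4% and 17.5%. In the lower band 6 of 20 members lay above and 0 below, against 16.9% and 11% of protein-coding genes, but 4 of the 6 (*Mmp8*, *Mmp9*, *Timp4* and *Loxl4*) passed the level only through S1a/ETP, which fixed their direction, so nothing is read from this count. In the upper band 2 of 15 lay above and 4 below, against 27.6% and 20.8%. By sign alone 22 of the 35 ratios were above 0, against 54.7% of protein-coding genes and 53.2% of all genes, with 53.9% in the lower band and 55% in the upper. The median log2 ratio of the 35 was 0.12, against 0.04 over the protein-coding genes. The median by family was 0.09 for the 12 MMPs past the level, 0.61 for the 4 TIMPs, −0.02 for the 11 ADAMTS genes, −0.24 for the 4 ADAMTS-like genes and 0.66 for the 4 lysyl oxidases. *Timp4* and *Loxl4* passed the level only through S1a/ETP, and among genes above 0.1 FPKM in both pools the median was 0.20 for the TIMPs and 0.46 for the lysyl oxidases. *Timp1* and *Loxl4* were nearest inside the 2-fold threshold on the higher side, at 1.03 and 1.24, and *Adamts9* and *Loxl2* nearest outside it, at 0.94 and 0.86. On the lower side *Mmp13* lay inside at −1.13 and *Adamts13* outside at −0.97.

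**Figure D1:**
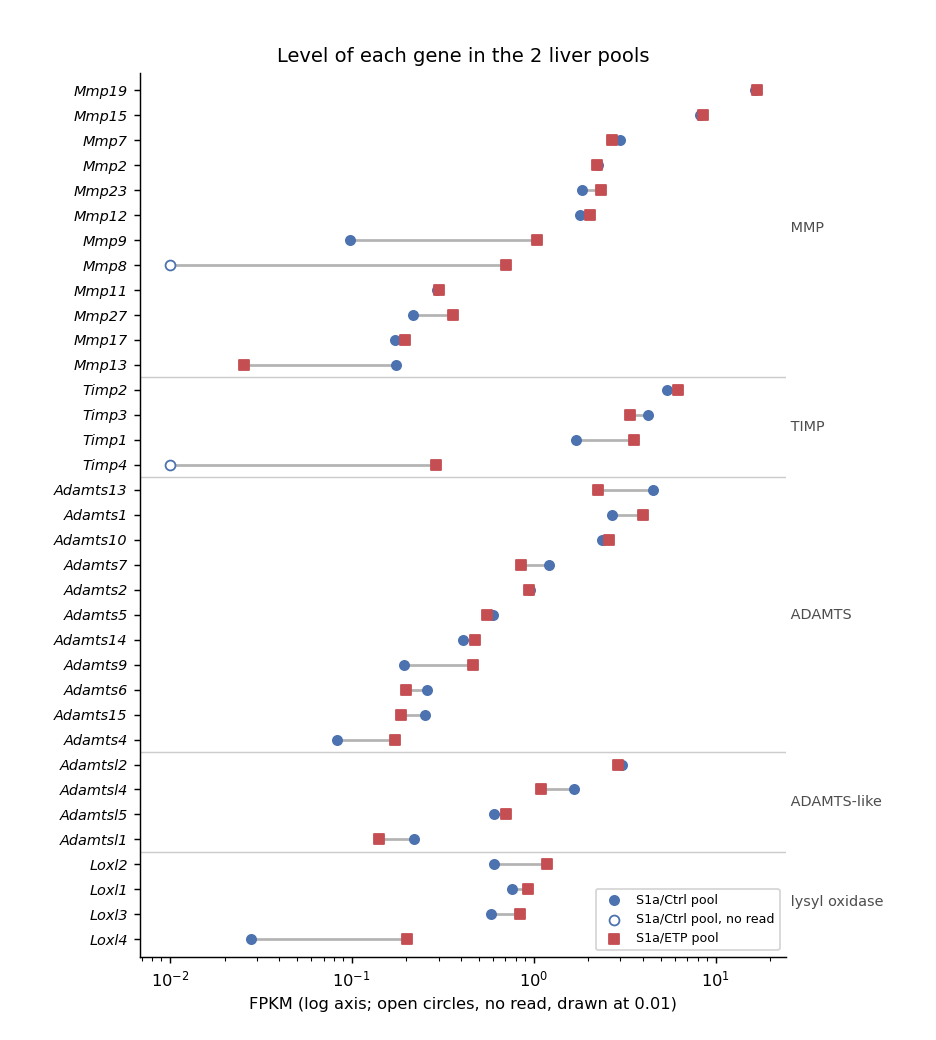
FPKM (x axis, log scale) of the 35 genes whose mean reached 0.1 FPKM, ordered by level within each family, in the S1a/Ctrl pool (blue circles) and the S1a/ETP pool (red squares), with a line between the 2 pools of each gene and no error bars. *Mmp19*, *Mmp15* and *Timp2* are among the highest and nearly coincide in both pools, whereas *Mmp8* and *Timp4*, without a read in S1a/Ctrl (open circles, drawn at 0.01), and *Mmp9* are far apart.

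The collagenases cut the triple helix of fibrillar collagen, and 2 of the 4 passed the level. *Mmp8*, the collagenase that neutrophils store in their granules (chr9:7558429-7568486 in mm10, the build of the table), had no read in S1a/Ctrl but 25 in S1a/ETP (0.701 FPKM). With the empty library set to a floor of 3 reads and the 25 reads taken as exact, it was at least 11.03-fold higher, and its log2 ratio was 3.002 [2.03, 3.002]. The counting error of the reads in S1a/ETP is in such an interval and not in such a bound. *Mmp13*, the main interstitial collagenase of the mouse (chr9:7272514-7283333), had 9 reads in S1a/Ctrl but 1 in S1a/ETP, or 0.175 and 0.0257 FPKM (log2 ratio −1.13 [−1.55, 0.05]). The interval held 0, so a difference in *Mmp13* was not detectable at this depth. *Mmp1a* and *Mmp1b*, the mouse counterparts of the human interstitial collagenase, had no read in either pool.

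*Mmp8* and *Mmp13* belong to a cluster of 10 MMP genes on chromosome 9, from 7272514 to 7699585, of which 5 passed the level of 0.1 FPKM. *Mmp12*, the metalloelastase of macrophages, was the gene of the cluster with the most reads, 155 and 133, or 1.80 and 2.04 FPKM (log2 ratio 0.17 [−0.15, 0.50]). *Mmp7*, the matrilysin of epithelial cells, was at 2.97 and 2.70 FPKM (log2 ratio −0.13 [−0.71, 0.44]). Of 5 markers of bile duct, an epithelium known to make it, 2 rose (*Spp1* at 0.57 and *Sox9* at 0.56) and 1 fell (*Epcam* at −0.65). Over protein-coding genes 25% rose and 18.4% fell. The median log2 ratio of the 5 was −0.48, and the interval of *Krt7* (−0.57) held 0. Their sum was 132.7 FPKM in S1a/Ctrl against 192.1 in S1a/ETP. Most of it was *Spp1*, at 126.7 and 187.5 FPKM, so the sum does not describe the other markers. The part of bile duct in the *Mmp7* value was not tested. *Mmp27*, next to *Mmp8* on the same strand, had 8 and 10 reads (log2 ratio 0.54 [−0.55, 1.57]). The intervals of *Mmp12*, *Mmp7* and *Mmp27* held 0, and *Mmp8* was the sole gene with reads in the cluster whose interval did not. The stromelysin gene *Mmp3* had no read in S1a/Ctrl but 1 in S1a/ETP, and *Mmp10*, another stromelysin, and *Mmp20*, the protease of tooth enamel, had none. *Mmp12* overlaps the exons of *Mmp1b* on the opposite strand over 157 bases, and the strand setting of the counting is not given in the sources used here.

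**Figure D2:**
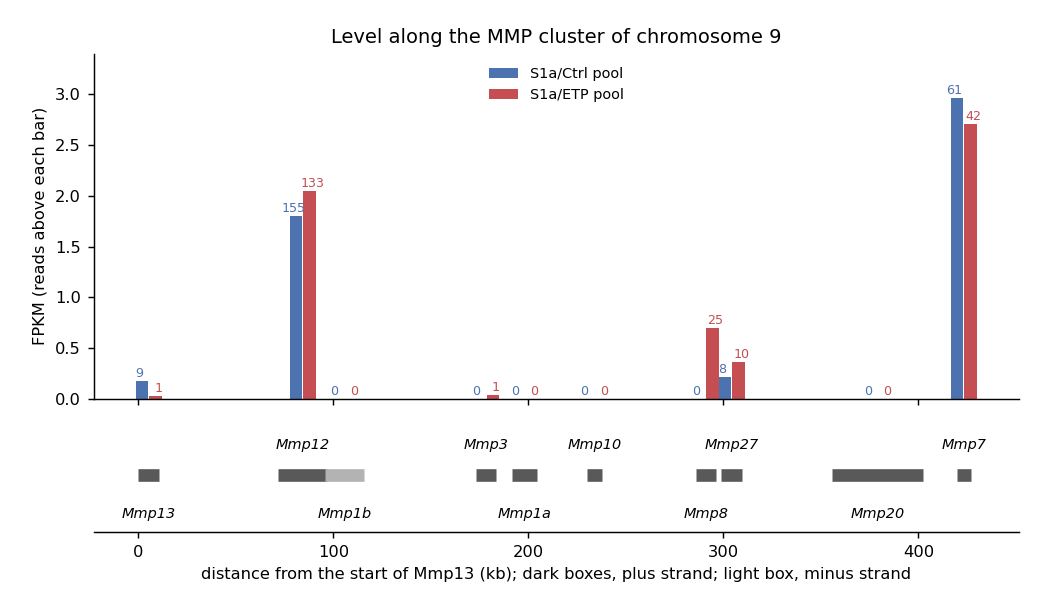
Level (y axis, FPKM) of the 10 genes of the MMP cluster of chromosome 9, placed by their distance in kb from the start of *Mmp13* (x axis, dark boxes for the plus strand and a light box for the minus strand), in the S1a/Ctrl pool (blue bars) and the S1a/ETP pool (red bars), each bar being 1 library with its read count above it. *Mmp8* has 0 and 25 reads between neighbors that differ little or have few reads, and *Mmp12* and *Mmp7* are the highest in both pools.

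In this cluster the intervals of *Mmp13*, *Mmp12* and *Mmp7* held 0, and *Mmp8* passed the level only through S1a/ETP. The stretches upstream of these genes and of *Timp1*, 5 in all, are shown for their letters, and no difference between the pools is read from them. They are the 250 bases before the RefSeq gene start in GRCm38.p6, the assembly of mm10, for *Mmp8* (chr9:7558179-7558428, plus strand), *Mmp13* (chr9:7272264-7272513, plus), *Mmp12* (chr9:7344147-7344396, plus, where the RefSeq start lies 16 bases inside that of the table), *Mmp7* (chr9:7691840-7692089, plus) and *Timp1* (chrX:20869916-20870165, plus). Capitals mark matches on either strand to AP-1 (TGANTCA), the ETS core (AGGAAG), the RUNX core (ACCACA), C/EBP (TTNNGCAA) and the TATA box (TATAAA), and no matches overlap in the 5 stretches.
Mmp8: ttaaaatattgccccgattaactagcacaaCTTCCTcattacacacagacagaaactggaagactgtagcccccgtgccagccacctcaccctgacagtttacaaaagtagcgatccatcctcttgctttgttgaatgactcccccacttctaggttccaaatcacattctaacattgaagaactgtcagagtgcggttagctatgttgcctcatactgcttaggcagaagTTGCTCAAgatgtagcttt
Mmp13: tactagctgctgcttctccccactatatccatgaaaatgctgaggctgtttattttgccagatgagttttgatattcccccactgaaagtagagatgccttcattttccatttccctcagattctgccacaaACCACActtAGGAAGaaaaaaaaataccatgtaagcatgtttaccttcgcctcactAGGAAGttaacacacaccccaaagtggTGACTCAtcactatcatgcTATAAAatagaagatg
Mmp12: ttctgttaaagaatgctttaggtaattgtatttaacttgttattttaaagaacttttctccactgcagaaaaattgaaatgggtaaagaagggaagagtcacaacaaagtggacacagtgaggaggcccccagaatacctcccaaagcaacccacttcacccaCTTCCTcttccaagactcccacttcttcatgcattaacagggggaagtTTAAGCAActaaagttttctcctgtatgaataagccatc
Mmp7: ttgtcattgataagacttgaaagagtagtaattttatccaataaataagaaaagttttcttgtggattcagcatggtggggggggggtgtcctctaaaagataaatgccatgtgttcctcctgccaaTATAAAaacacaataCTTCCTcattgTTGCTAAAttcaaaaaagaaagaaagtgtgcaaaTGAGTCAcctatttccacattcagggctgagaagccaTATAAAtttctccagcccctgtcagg
Timp1: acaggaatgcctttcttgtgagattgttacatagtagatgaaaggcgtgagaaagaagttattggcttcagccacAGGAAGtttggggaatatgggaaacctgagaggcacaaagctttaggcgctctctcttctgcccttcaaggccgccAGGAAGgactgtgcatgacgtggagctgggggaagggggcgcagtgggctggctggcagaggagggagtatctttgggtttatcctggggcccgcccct
*Mmp8* held 1 match to C/EBP, 19 to 12 bases before the start, and 1 to the ETS core. *Mmp13* held AP-1 at 35 to 29 bases before the start, with 2 ETS cores, 1 RUNX core and a TATA box. *Mmp7* held AP-1 at 63 to 57 bases, C/EBP at 97 to 90 bases, 1 ETS core and 2 TATA boxes. *Mmp12* held C/EBP at 39 to 32 bases and 1 ETS core, and *Timp1* held 2 ETS cores. RefSeq entries were found for 36 of the 55 genes, of which 7 held AP-1 (19.4%), 12 the ETS core (33.3%), 4 the RUNX core (11.1%), 6 C/EBP (16.7%) and 10 the TATA box (27.8%). Over 32851 stretches of this length the shares were 6.75%, 29.5%, 14.0%, 9.56% and 12.4%. All 7 genes with AP-1 belong to the cluster of chromosome 9. Only *Mmp13* and *Mmp7* of them passed the level of 0.1 FPKM, so that 2 of the 21 members past it with an entry held AP-1, and the other 5 had 0 or 1 read in each pool. A match describes the letters and does not show that a factor binds there.

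The gelatinases cut denatured collagen and the collagen IV of basement membranes. *Mmp9* (gelatinase B, chr2:164940780-164955850) was at 0.0982 FPKM with 6 reads in S1a/Ctrl against 1.04 FPKM with 48 reads in S1a/ETP (log2 ratio 2.52 [1.74, 3.155]). *Mmp2* (gelatinase A, made by stellate cells and fibroblasts) was at 2.26 FPKM with 132 reads in S1a/Ctrl against 2.24 FPKM with 99 reads in S1a/ETP (log2 ratio −0.01 [−0.38, 0.36]). The inducible gelatinase was thus higher in 1 pool while the interval of the other held 0. *Mmp9* stayed below *Mmp2* in FPKM in both pools.

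The proteins of *Mmp8* and *Mmp9* are stored by neutrophils. Both genes passed the level only through S1a/ETP, which fixed their direction. Nothing is therefore read from the direction they share with neutrophil markers. Of 11 such markers 10 passed the level and all 10 rose, against 25% of protein-coding genes. Their median log2 ratio was 5.66, or 5.27 when the 4 of them without a read in the control pool (*Elane*, *Mpo*, *Ngp* and *Camp*) are taken at their bound. These 4 and *Ltf* were under 0.1 FPKM in S1a/Ctrl and passed the level only through S1a/ETP, which fixed their direction. *S100a8* and *S100a9*, above 0.1 FPKM in both pools, had log2 ratios of 5.74 and 5.63. *Cxcr2*, which did not pass, had 0 and 7 reads. *Elane*, *Mpo*, *Ltf* and *Cxcr2* were chosen for naming after their values were seen. *Ngp*, a protein of secondary granules, had 0 and 616 reads, and *Camp*, the cathelicidin, 0 and 289. *Ly6g*, the surface antigen, had 2 and 24 reads, and the receptor gene *Csf3r* 30 and 59. *Mmp25*, a membrane-anchored MMP of neutrophils, had 0 and 4 reads, below the level (log2 ratio 0.86 [−0.05, 0.86]). In RNA of whole liver, a change in the number of cells of a type and one in RNA per cell cannot be told apart. The part of neutrophils in the *Mmp8* and *Mmp9* values was not tested. Without *Mmp8* and *Mmp9*, 3 of 33 members were 2-fold higher, against 4.58% of protein-coding genes, and the median log2 ratio was 0.11. Of these 3, *Timp4* and *Loxl4* passed the level only through S1a/ETP, which fixed their direction, so nothing is read from this count.

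The 2 most abundant of the 22 MMPs showed little difference. *Mmp19*, which cuts basement membrane proteins, was at 16.4 and 16.9 FPKM on 1075 and 836 reads (log2 ratio 0.04 [−0.09, 0.17]). It shares 789 exon bases with *Tmem198b* on the opposite strand, which was at 1.20 and 1.26 FPKM. *Mmp15*, a transmembrane MMP, was at 8.17 and 8.49 FPKM (log2 ratio 0.05 [−0.11, 0.22]). These 2 genes held 47.4% and 23.7% of the summed FPKM of the 22 MMPs in S1a/Ctrl and 44.6% and 22.5% in S1a/ETP. *Mmp23*, anchored by its N-terminal end, was at 1.85 and 2.35 FPKM (log2 ratio 0.33 [−0.24, 0.90]), and the GPI-anchored *Mmp17* at 0.173 and 0.197 FPKM (log2 ratio 0.12 [−0.66, 0.89]). *Mmp11*, a stromelysin that furin activates, was at 0.295 and 0.301 FPKM, and it shares 155 exon bases with *Chchd10*, a gene on the opposite strand at 339 and 299.8 FPKM.

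The TIMPs diverged from each other. *Timp1* (chrX:20870166-20874735), the inducible secreted inhibitor of most MMPs, was at 1.71 FPKM with 29 reads in S1a/Ctrl against 3.58 FPKM with 46 reads in S1a/ETP (log2 ratio 1.03 [0.35, 1.71]). With the median log2 ratio of genes averaging at least 1 FPKM set to 0 it was just short of 2-fold. *Timp2*, which both inhibits MMPs and takes part in the activation of the *Mmp2* product, was at 5.41 and 6.23 FPKM (log2 ratio 0.20 [−0.01, 0.41]). *Timp3*, the inhibitor that stays bound to the matrix and also blocks ADAMTS proteases, fell from 4.27 FPKM with 388 reads to 3.39 FPKM with 233 reads (log2 ratio −0.32 [−0.56, −0.09]). *Timp4* had no read in S1a/Ctrl but 6 reads in S1a/ETP (log2 ratio 1.97 [0.36, 1.97]), at least 2.65-fold higher at the floor of 3 reads with the 6 taken as exact.

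The sum of the 4 TIMPs was 11.4 FPKM in S1a/Ctrl against 13.5 in S1a/ETP. The share of *Timp1* in it was 14.99% in S1a/Ctrl and 26.5% in S1a/ETP, and that of *Timp3* 37.5% and 25.1%. *Timp2* held 47.5% and 46.2% and remained the most abundant of the 4. In reads scaled to depth, the TIMP sum in S1a/ETP was 1.02 [0.92, 1.14] times that in S1a/Ctrl, a sum in which longer genes weigh more. *Timp1* lies inside *Syn1*, a gene of the opposite strand, without shared exon bases, and *Timp3* shares 1733 exon bases with *Syn3*, which was at 0.0762 and 0.216 FPKM.

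Among the other inhibitors listed, *Reck*, a membrane-anchored inhibitor of MMPs, was at 0.788 and 0.756 FPKM (log2 ratio −0.05 [−0.54, 0.43]). *Pzp*, a plasma protein that traps proteases of all classes, was at 813 and 941 FPKM (log2 ratio 0.21 [0.20, 0.23]). *Tfpi2*, an inhibitor of serine proteases, was at 39.7 and 42.4 FPKM (log2 ratio 0.09 [−0.03, 0.22]). None of these 3 was 2-fold changed. The plasminogen system generates plasmin, which can activate MMP zymogens. *Serpine2*, an inhibitor of thrombin and of plasminogen activators, fell from 3.87 to 1.84 FPKM (log2 ratio −1.03 [−1.38, −0.69]). *Plg*, the zymogen of plasmin, was at 521 and 507 FPKM.

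**Figure D3:**
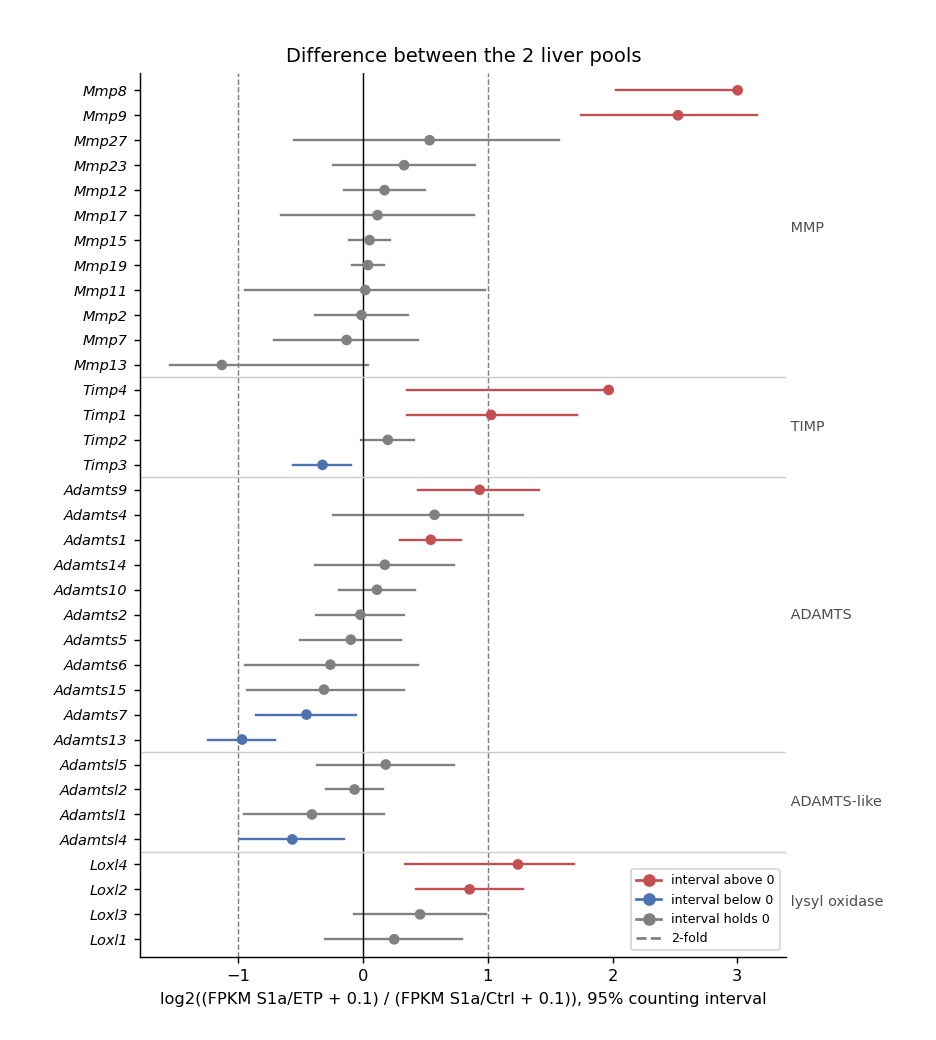
Log2 ratio of S1a/ETP over S1a/Ctrl (x axis, FPKM + 0.1) of the 35 genes, sorted within families, with 1 value per gene and bars for the 95% counting interval. Dashed lines mark 2-fold. Intervals above 0 (red) belong to 8 genes, *Mmp8* and *Mmp9* farthest out, those below 0 (blue) to *Timp3*, *Adamts7*, *Adamts13* and *Adamtsl4*, and 23 hold 0 (grey).

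Of the 19 ADAMTS proteases 11 passed the level, and none was 2-fold changed. Of the 11, 2 rose and 2 fell, against 25% and 18.4% of protein-coding genes. *Adamts1*, which cuts versican and aggrecan, rose from 2.69 FPKM with 253 reads to 3.97 FPKM with 282 reads (log2 ratio 0.54 [0.30, 0.79]). *Adamts9*, with the same class of substrate, rose from 0.194 FPKM with 30 reads to 0.463 FPKM with 54 reads (log2 ratio 0.94 [0.44, 1.41]). *Adamts4*, an aggrecanase, had 7 and 11 reads (log2 ratio 0.57 [−0.24, 1.28]). *Adamts5*, the other main aggrecanase, was at 0.597 and 0.553 FPKM (log2 ratio −0.10 [−0.50, 0.31]), and *Adamts15* at 0.254 and 0.186 FPKM (log2 ratio −0.31 [−0.93, 0.33]). Of the 7 proteases of proteoglycans 5 passed the level, and the interval lay above 0 for 2 and held 0 for the other 3. Over protein-coding genes it lay above 0 for 25%, and with 5 genes nothing is read from this count.

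*Adamts13* (chr2:26973416-27009628), the protease of von Willebrand factor that the liver releases into plasma, was the most abundant ADAMTS gene in S1a/Ctrl. It fell from 4.51 FPKM with 391 reads to 2.26 FPKM with 148 reads (log2 ratio −0.97 [−1.24, −0.70]). Without the pseudocount it was 1.996-fold lower, just short of 2-fold. Its share of the summed FPKM of the 19 ADAMTS genes was 32.9% in S1a/Ctrl and 17.5% in S1a/ETP, while that of *Adamts1* was 19.6% and 30.8%. Stellate cells are the known source of *Adamts13* in mouse liver. Markers of stellate cells and fibroblasts had a median log2 ratio of 0.02 over 11 genes and summed to 167 and 172 FPKM. Of the 11, 3 rose and 2 fell, against 27.6% and 20.8% of protein-coding genes above 1 FPKM. *Lrat*, the retinol esterifying enzyme of stellate cells, and *Lum* had the highest log2 ratios, 0.48 [0.28, 0.69] and 0.40 [0.21, 0.60]. The 2 that fell were *Des*, an intermediate filament gene also made in muscle (log2 ratio −0.60 [−0.96, −0.25]), and *Dpt* (−0.35 [−0.64, −0.06]). The muscle markers fell as *Adamts13* did, and their part in its value was not tested.

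*Adamts7*, which cuts cartilage oligomeric matrix protein, was at 1.21 FPKM with 125 reads in S1a/Ctrl against 0.857 FPKM with 67 reads in S1a/ETP (log2 ratio −0.45 [−0.86, −0.05]). It fell, although its interval held 0 when the values were rescaled to TPM. *Adamts10*, a microfibril-associated protease, was at 2.38 and 2.59 FPKM (log2 ratio 0.11 [−0.19, 0.42]). The procollagen N-proteinases, which trim the N-terminal propeptide of fibrillar collagens, showed no detectable difference. *Adamts2* was at 0.951 and 0.937 FPKM (log2 ratio −0.02 [−0.37, 0.33]), and *Adamts14* at 0.411 and 0.477 FPKM (log2 ratio 0.18 [−0.38, 0.73]). *Adamts6* had 24 and 14 reads (log2 ratio −0.26 [−0.95, 0.45]).

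In the ADAMTS-like family 4 of 5 genes passed the level, and 1 fell, against 18.4% of protein-coding genes. *Adamtsl4*, a protein of fibrillin microfibrils, fell from 1.66 FPKM with 129 reads to 1.09 FPKM with 64 reads (log2 ratio −0.56 [−0.98, −0.15]). *Adamtsl2*, which binds fibrillin and the latent TGF-beta binding protein, was the most abundant at 3.06 and 2.92 FPKM (log2 ratio −0.07 [−0.30, 0.16]). *Adamtsl1* was at 0.219 and 0.140 FPKM (log2 ratio −0.41 [−0.95, 0.17]), and *Adamtsl5* at 0.608 and 0.704 FPKM (log2 ratio 0.18 [−0.36, 0.73]). *Adamtsl3* had 1 read in S1a/Ctrl but none in S1a/ETP.

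Of the 5 lysyl oxidases 4 passed the level, *Loxl4* only through S1a/ETP, which fixed its direction. The log2 ratios of the other 3, *Loxl1*, *Loxl2* and *Loxl3*, were above 0 with a median of 0.46. *Loxl2*, which cross-links collagen IV and fibrillar collagens, rose from 0.606 FPKM with 62 reads to 1.18 FPKM with 91 reads (log2 ratio 0.86 [0.43, 1.28]). *Loxl4* had 2 reads in S1a/Ctrl but 11 in S1a/ETP, or 0.0278 and 0.202 FPKM (log2 ratio 1.24 [0.34, 1.69]). *Loxl3* was at 0.583 and 0.839 FPKM (log2 ratio 0.46 [−0.07, 0.99]), and *Loxl1*, the oxidase of elastic fibers, at 0.763 and 0.927 FPKM (log2 ratio 0.25 [−0.30, 0.80]). *Lox* itself, below the level of 0.1 FPKM, had no read in S1a/Ctrl but 8 reads in S1a/ETP (log2 ratio 1.16 [0.40, 1.16]), at least 3.53-fold higher at the same floor with the 8 taken as exact. The 5 genes together had 159 reads in S1a/Ctrl against 205 in the shallower S1a/ETP library, which scaled to depth is 1.71 [1.38, 2.11] times as many. The same sum over the 19 ADAMTS genes was 0.961 [0.884, 1.04] times that in S1a/Ctrl and over the 5 ADAMTS-like genes 0.883 [0.773, 1.01] times. Over the 22 MMPs it was 1.09 [1.02, 1.16] times, an interval that also lay above 1. The interval of the lysyl oxidases lay above those of the MMPs and of both ADAMTS families, and the last 2 held a ratio of 1. The lysyl oxidase sum takes in *Lox* and *Loxl4*, which had 0 and 2 reads in S1a/Ctrl. *Loxl3* shares 535 exon bases with *Htra2*, a gene of the opposite strand at 5.34 and 3.97 FPKM.

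The substrates and partners of these enzymes were read beside them. Over protein-coding genes past the level 25% rose and 18.4% fell, with a median log2 ratio of 0.04. Of 10 genes of collagen and elastic fiber substrates, 9 rose and none was 2-fold changed, with a median log2 ratio of 0.69 against 0.04 over protein-coding genes. *Col1a1*, a chain of the main fibrillar collagen, rose from 2.49 to 4.98 FPKM (log2 ratio 0.97 [0.76, 1.19]), and *Fbn1*, the fibrillin of microfibrils, had a log2 ratio of 0.99 [0.65, 1.32]. *Fn1*, fibronectin, rose from 108.6 to 165 FPKM. The exception was *Eln*, elastin, with 56 and 29 reads (log2 ratio −0.49 [−1.11, 0.12]). Of 13 genes that process or cross-link collagen beside the lysyl oxidases, 7 rose and 1 fell, with a median log2 ratio of 0.19. *Efemp2*, a fibulin that brings lysyl oxidase to elastin, rose from 2.13 to 4.25 FPKM (log2 ratio 0.96 [0.54, 1.39]), and *Sparc*, a collagen-binding protein, had a log2 ratio of 0.64 [0.53, 0.75]. *P4ha1*, a collagen prolyl hydroxylase subunit, fell by 0.29 on the log2 scale [−0.58, −0.01].

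Of 7 proteoglycan substrates 4 passed the level of 0.1 FPKM. *Vcan* (versican), with 16 and 21 reads, and *Acan* (aggrecan), without a read, did not, and both were chosen for naming after their values were seen. Of the 4, *Lum* and *Bgn*, small collagen-binding proteoglycans, rose with log2 ratios of 0.40 [0.21, 0.60] and 0.28 [0.20, 0.37]. *Dcn*, the most abundant at 92.4 and 93.9 FPKM, had a log2 ratio of 0.02 [−0.05, 0.10]. Of 7 genes of the related ADAM proteases, which shed membrane proteins, 2 rose and none fell, against 25% and 18.4% of protein-coding genes. *Adam8*, a sheddase of leukocytes, rose from 0.439 to 0.900 FPKM (log2 ratio 0.89 [0.31, 1.47]), and *Adam9* and *Adam10*, the most abundant, had log2 ratios of 0.03 [−0.08, 0.14] and −0.02 [−0.19, 0.15]. Macrophage markers, all 9 of which rose against 25% of protein-coding genes, summed to 155 and 202 FPKM. Their median log2 ratio was 0.46. The interval of *Mmp12*, the metalloelastase of these cells, held both 0 and this median.

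**Figure D4:**
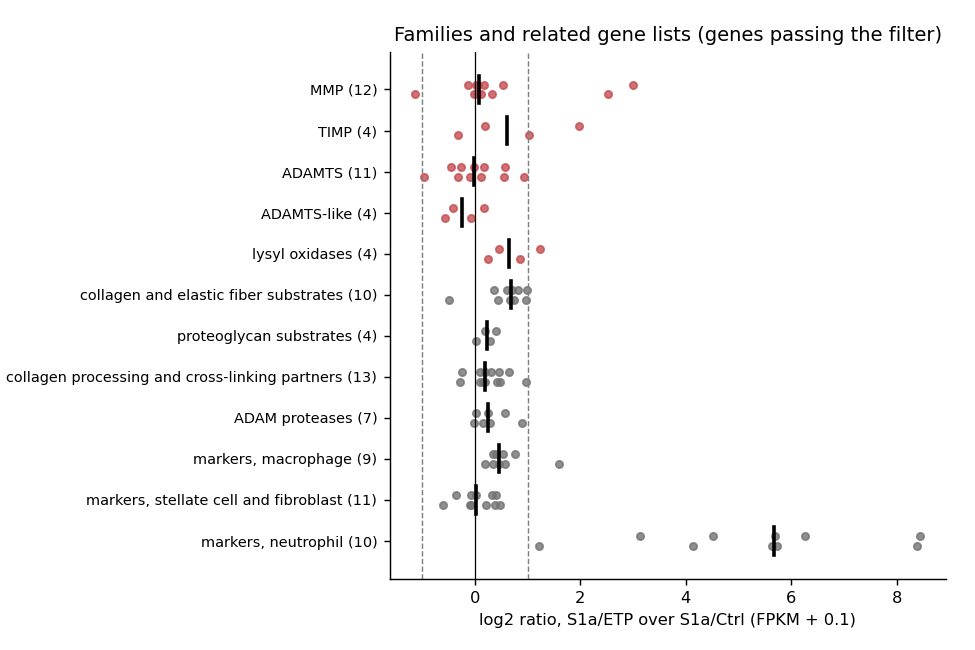
Log2 ratio of S1a/ETP over S1a/Ctrl (x axis) of single genes (points) in the 5 families (red) and in related lists (grey), with the median of each row as a black bar and the number of genes past 0.1 FPKM in parentheses. The 4 lysyl oxidases lie above 0, *Loxl4* having passed the level only through S1a/ETP, the collagen substrates lie above 0 apart from *Eln*, the MMP row has *Mmp8* and *Mmp9* far from its median, and the neutrophil row has the median farthest from 0.

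The 20 genes below 0.1 FPKM had at most 13 reads in a library. No read was found in either pool for 7 of them, *Mmp1a*, *Mmp1b*, *Mmp10*, *Mmp20*, *Adamts8*, *Adamts18* and *Adamts20*, which at a floor of 3 reads limits them to low levels and does not show their absence. Of the 13 with reads, *Lox*, *Mmp28* and *Adamts12* had intervals above 0. The share of all genes below 0.1 FPKM with such an interval was not computed, so nothing is read from this count. *Mmp28*, the epilysin of epithelia and macrophages, had 1 read in S1a/Ctrl but 9 in S1a/ETP (log2 ratio 1.28 [0.34, 1.58]). *Adamts12*, with 4 and 13 reads, had a log2 ratio of 0.87 [0.18, 1.33]. The remaining 10 were *Mmp3*, *Mmp16*, *Mmp21*, *Mmp24*, *Mmp25*, *Adamts3*, *Adamts16*, *Adamts17*, *Adamts19* and *Adamtsl3*, whose intervals held 0.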

How the data were processed

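Liver RNA of 3 mice per group was pooled into 1 library, and Novogene sequenced it. The FPKM values were deposited as 1 table, beside IDs, coordinates and gene lengths. Among the tools and builds in the submitters' notes are GATK 4.1, StringTie 1.3.3b, HTSeq 0.6.1, STAR and mm10, with no role stated. The sources used here do not give the annotation release, filters or strandedness of the counting. Of 34490 table IDs found in GENCODE M21 (GRCm38), 24919 had the same start and end there, and all 55 members were found. Exon overlaps were taken from that annotation.

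Reads were recovered from FPKM, gene length and depth (19245078 and 14538808 reads, 100% of values whole within 0.01 reads). Ratios used a pseudocount of 0.1 FPKM, which understates changes of low genes, a mean of at least 0.1 FPKM and a threshold of 2-fold. A gene at 0 in 1 library was bounded with 3 reads. Intervals and floors describe the counting of reads alone, and variation among mice or library preparations is not in them. The steps were tested on simulated data. Members, and 14 related lists with 110 genes, were chosen with earlier results of these data known. *Adgre1* was found under an older symbol and 1 listed gene was not matched. Every member may be named, and of each related list the 2 highest, the 2 lowest and the 2 most abundant genes. A further gene of these families and some results on other genes are not reported here. Alternatives changed the pseudocount, the level, the scaling and the threshold. Python 3.11.15, numpy 2.4.6, pandas 2.3.3, scipy 1.17.1 and matplotlib 3.10.9 were used.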

Additional observations from a re-analysis of the deposited data

How the results depend on the processing

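The count of members at least 2-fold higher was 5 and the count lower 1. Raising the pseudocount to 1 FPKM left 0 and 0, a minimum mean of 1 FPKM gave 1 and 0, at least 20 reads 3 and 0, a 4-fold threshold 2 and 0, and 8 and 4 were called by the counting interval. With 0.1 FPKM required in both pools, an alternative chosen after seeing the data, they were 1 and 0. The other settings gave 4 to 7 higher and 1 lower, and the median log2 ratio lay between 0.04 and 0.20 under all of them. *Timp1* passed 2-fold under each scaling except a median log2 ratio of 0 over genes averaging at least 1 FPKM, and *Adamts9* joined with TPM. The scalings shifted log2 ratios by −0.03, 0.07 and 0.03, and the interval of *Timp2* lay above 0 with TPM and without the 100 most abundant genes. *Mmp11* changed sign when the median was set to 0, *Mmp2* and *Adamts2* with TPM and without the 100 most abundant genes, and *Adamtsl2* with TPM, all with ratios near 0, and no member called 2-fold did. *Timp4*, *Loxl4* and *Mmp13* rest on fewer than 20 reads. No paired analysis was possible because each group was 1 library.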
